A study of Mus musculus with 18 samples.

Results

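The family of miR-130 and miR-301 is a group of microRNAs (miRNAs, short RNAs that repress messenger RNAs by pairing with them) that share 1 seed, the bases 2 to 8 that do most of the target recognition. Its members were taken by name as the 3p arms miR-130a-3p, miR-130b-3p, miR-301a-3p and miR-301b-3p, and all 4 were among the 758 miRNAs listed for these livers. The members were chosen by name and seed and by no threshold on a level, but the family itself was picked with earlier results of these data known, so its levels are first of all a description. Levels are in RPM, reads per 1000000 reads of a library, and 3 of the 4 members passed the filter for testing of at least 5 RPM in at least 3 libraries, together with 348 other miRNAs.

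Livers came from wild type C57BL/6J mice, and small RNA was sequenced in 18 libraries, 3 in each of 6 groups. The mice received an LF or an HF diet from 5 weeks of age, alone or with CR or Ex, and were sampled at 62 weeks. These abbreviations are read here as low-fat, high-fat, calorie restriction and exercise, and the groups are called LF and HF (diet alone), LF+CR and HF+CR, and LF+Ex and HF+Ex. The labels give neither the sex of the mice nor whether the libraries of a group are separate animals, so p-values measure the spread between these libraries, which may be technical.

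In mammals the family is known as a repressor of Pparg, the nuclear receptor that drives fat-cell formation and lipid storage. miR-130a is also known in endothelial cells for repressing anti-angiogenic homeobox genes, and miR-301a for raising NF-kB activity by repressing Nkrf. The shared seed lets the members bind overlapping sets of messages, while the bases after it differ between them.

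The mature sequences show what the members share and where they part, with the seed in capitals, 5′ to 3′, from RefSeq (GRCm38.p6).
mmu-miR-130a-3p: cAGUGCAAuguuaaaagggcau
mmu-miR-130b-3p: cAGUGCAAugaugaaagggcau
mmu-miR-301a-3p: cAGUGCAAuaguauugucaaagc
Counted from 1 at the 5′ end, miR-130b-3p differs from miR-130a-3p by U11A and A13G, and 20 of their 22 bases are the same. miR-301a-3p shares its first 9 bases with both and, over the first 22 bases, 12 with miR-130a-3p and 11 with miR-130b-3p. miR-301b-3p is given by name only. Mature sequences were found for 606 of the 758 listed miRNAs, and 3 of these 606 carried the seed, all members.

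The 4 hairpins lie at 3 loci of GRCm38 (mm10). Mir130a (chr2:84741115-84741178, minus strand) lies between genes, 991 bases from Gm19426 on the same strand and 2460 bases from Ypel4 on the other. Mir130b (chr16:17124061-17124142) and Mir301b (chr16:17124400-17124496) lie 258 bases apart on the minus strand, both in an intron of 2610318N02Rik, which is on the same strand. The hairpin of miR-301a, Mir301 (chr11:87113004-87113089, plus strand), lies in an intron of Ska2, also on its own strand.

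Depth, as implied by the RPM steps, was lowest in HF+Ex replicate 1 and highest in LF+Ex replicate 2, with 2379753 and 10481218 reads on listed miRNAs. The hepatocyte list (miR-122, miR-192, miR-194 and miR-148a arms) was high in all libraries, and its 5 members summed to between 297173 and 408641 RPM in every library. LF replicate 1 and HF+CR replicate 3 stood apart from the rest. They had the lowest hepatocyte sums (297173 and 300351 RPM), the highest leukocyte and Kupffer sums (8072 and 9127 RPM), and the highest epithelial and bile duct sums (5663 and 7989 RPM). Values without these 2 libraries are given with the results they change or in the closing paragraphs.

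miR-130a-3p was by far the most abundant member, with a mean of 2218 RPM over the 18 libraries (4597 to 30128 reads), rank 44 of the 758 listed miRNAs. miR-301a-3p followed at 207 RPM (481 to 2510 reads, rank 119). miR-130b-3p averaged 4.63 RPM on 12 to 60 reads (rank 327), and miR-301b-3p 1.89 RPM on 3 to 36 reads (rank 393). The hairpin neighbours were therefore the 2 scarcest members, and counting error alone is large for both. RPM of miRNAs of nearly equal length can be set side by side, but ligation bias between sequences was not measured.

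The family summed to 0.162 to 0.337% of listed RPM. miR-130a-3p made up 86.1 to 95.5% of that sum and miR-301a-3p 4.43 to 13.5%. The share of miR-130a-3p was highest in LF+Ex (93.6% on average) and lowest in HF+Ex (87.5%). The summed level was 2944 ± 269 RPM in LF+Ex and 1767 ± 267 RPM in HF+Ex (SD, n = 3), and the other 4 groups averaged between 2401 and 2557 RPM.

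**Figure D1:**
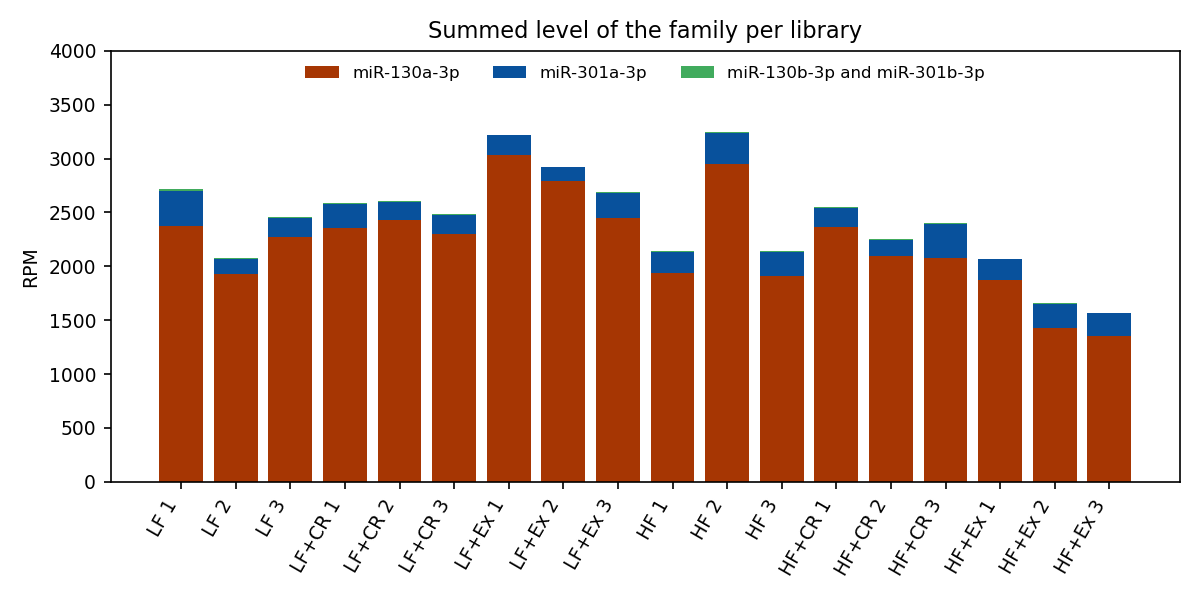
Summed RPM of the family in each of the 18 libraries, stacked by member. miR-130a-3p makes up 86.1 to 95.5% of every bar, and the 3 HF+Ex bars, 1570 to 2071 RPM, are the lowest, just under LF replicate 2 at 2073 RPM.

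The other arms of the hairpins were scarce. miR-130a-5p averaged 2.87 RPM (1.39 to 5.32), miR-130b-5p 0.691 RPM (0 to 2.01) and miR-301a-5p 0.295 RPM (0 to 0.892). The 3p arm held 99.8 to 99.9% of miR-130a reads, 99.6 to 100% of miR-301a reads and 75.0 to 100% of miR-130b reads, so the 3p arm was the main product in each library.

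miR-130a-3p was lowest in exercised mice on the HF diet and highest in exercised mice on the LF diet. In HF+Ex the 3 libraries held 1869, 1432 and 1351 RPM, and in LF+Ex 3032, 2791 and 2451 RPM. The unexercised groups held 2375, 1931 and 2267 RPM (LF), 2358, 2427 and 2303 RPM (LF+CR), 1936, 2953 and 1912 RPM (HF) and 2366, 2094 and 2075 RPM (HF+CR). All 3 HF+Ex libraries were below every other library of the series, in RPM and after rescaling by median-ratio size factors. HF replicate 2, at 2953 RPM, was far above the other HF libraries and within the LF+Ex range.

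In order of mean level, LF+Ex (2758 ± 292 RPM) was followed by LF+CR (2362.5 ± 62.5), HF (2267 ± 594), LF (2191 ± 232), HF+CR (2178 ± 163) and HF+Ex (1551 ± 278), each SD over 3 libraries. Among the 4 groups in the middle, neighbours in this order differed by less than the SD of at least 1 of the pair. The difference between the 6 groups held 69.5% of the variance of log2 levels of miR-130a-3p, compared with 11.7% for miR-301a-3p, 33.1% for miR-130b-3p and 44.1% for miR-301b-3p. With 3 libraries per group, values without any group effect also place part of the variance between groups. How large that part would be was not computed. These shares are a description and were not tested.

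**Figure D2:**
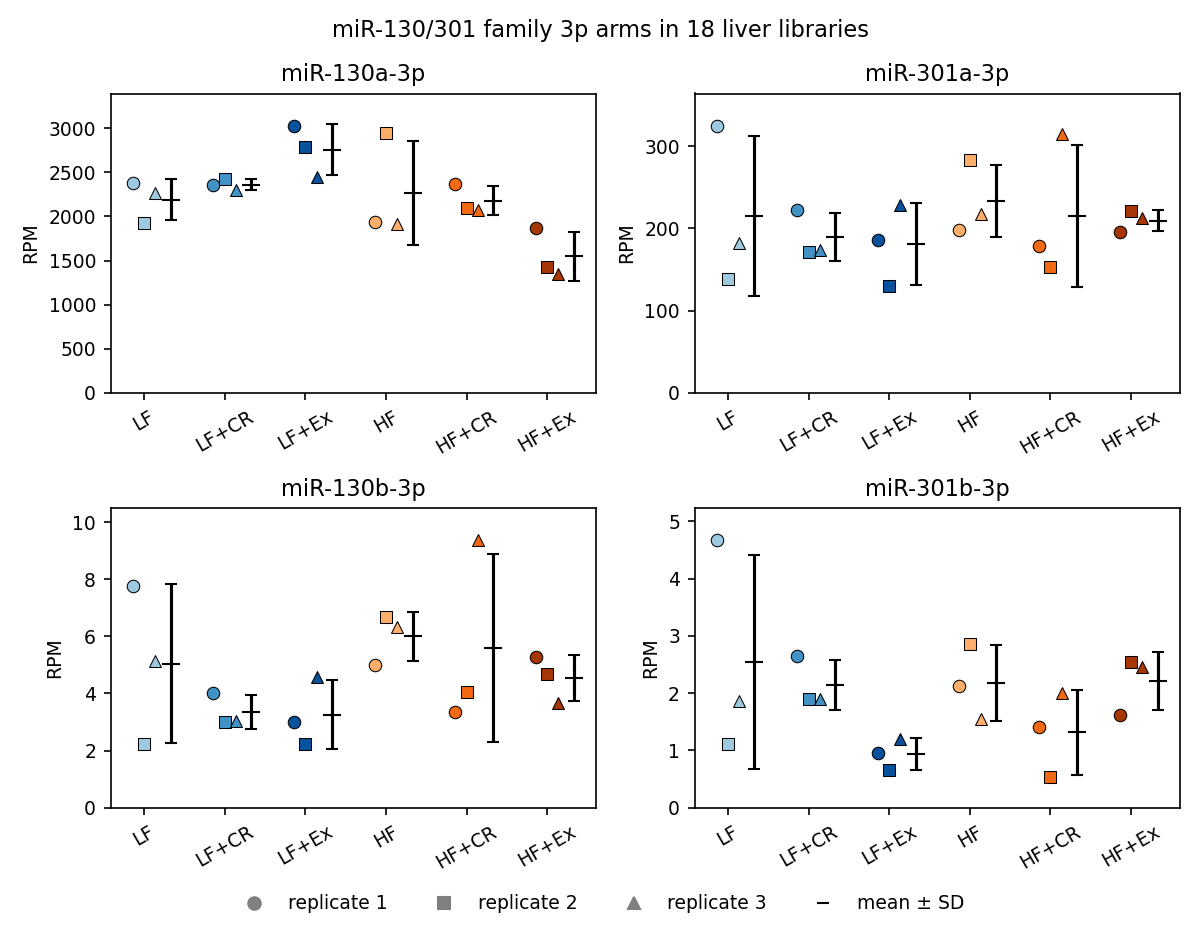
RPM of the 4 members in every library by group, with the group mean and SD beside the points (n = 3). miR-130a-3p lies at 1351 to 1869 RPM in HF+Ex, below all its other libraries, and most other groups overlap.

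The question of the design is how diet, CR and Ex change liver miRNAs, and it was put to the 3 testable members in 10 comparisons. Tests were limma's on log2(RPM + 1) over 351 miRNAs, with Benjamini-Hochberg adjustment and a call at adjusted p under 0.05. Of these 30 tests, 1 was called and 3 were under 0.05 before adjustment, all of miR-130a-3p. With voom weights on the implied reads 1 was called as well.

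Averaged over the 3 regimens, miR-130a-3p was lower on the HF than on the LF diet. The log2 difference was -0.31 (SE 0.10, 95% interval -0.53 to -0.10, limma adjusted p = 0.0487). In this comparison 18.5% of all tested miRNAs were called, 56 higher and 9 lower, and 1 of 3 members was called. The median of all tested miRNAs was 0.19 higher, opposite in sign to miR-130a-3p. After rescaling by median-ratio size factors, which shifted the median of all by -0.20, the difference was -0.52 (limma adjusted p = 0.00837), and 46.9% of calls were lower in place of 13.8%.

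The difference was largest between the exercised groups. The log2 difference was 0.02 without intervention, -0.12 under CR and -0.84 under Ex (SE 0.18 each), where the medians of all tested miRNAs were 0.05, 0.38 and 0.22. After rescaling, the 3 differences of miR-130a-3p were -0.03, -0.45 and -1.07, so the value under CR depended on the scaling. Without both exercise groups the averaged difference was -0.05 (limma adjusted p = 0.851). Leaving out 1 library at a time gave -0.38 to -0.28, with adjusted p from limma of 0.0215 to 0.0855. The call was kept in 4 of these 18 omissions (LF+Ex replicate 3, HF replicate 2, HF+CR replicate 1 or HF+Ex replicate 1) and lost in the other 14. Without LF replicate 1 and HF+CR replicate 3 together it was -0.28 (limma adjusted p = 0.0763).

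On the HF diet, the 3 exercised libraries were all below the 3 unexercised ones, at 0.684 times their mean. Such a gap in this direction was seen for 8.26% of tested miRNAs, and the opposite gap for 9.69%. The log2 difference of miR-130a-3p was -0.53 (SE 0.18, 95% interval -0.91 to -0.16), and it did not pass the test (limma adjusted p = 0.326, unadjusted p = 0.00836), where 0.855% of miRNAs were called. Without HF replicate 2 it was -0.33 (limma adjusted p = 0.968), and without HF+Ex replicate 1 it was -0.67 (limma adjusted p = 0.0782).

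On the LF diet, the 3 exercised libraries were all above the 3 unexercised ones, at 1.26 times their mean, as were 6.27% of tested miRNAs, while 15.1% were all below. The log2 difference was 0.33 (SE 0.18, limma adjusted p = 0.434), and no miRNA was called (0%, 41 at unadjusted p under 0.05, 1 called with voom). After rescaling, which shifted the median of all by 0.18, the difference of miR-130a-3p was 0.51 (limma adjusted p = 0.198, unadjusted p = 0.0105). Between the exercised groups, the HF+Ex libraries were all below the LF+Ex libraries, at 0.562 times their mean, a gap that 9.4% of tested miRNAs showed in that direction.

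The difference between the Ex effects on the 2 diets was itself tested. For miR-130a-3p it was -0.86 on the log2 scale (SE 0.25, 95% interval -1.39 to -0.33, limma adjusted p = 0.108, unadjusted p = 0.0033), with 0.855% of miRNAs called. After rescaling it was -1.03 and passed (limma adjusted p = 0.0466), with the median of all shifted by -0.17 and 87.5% of calls lower in place of 100%. Single omissions gave -1.01 to -0.66. For miR-301a-3p the same difference was 0.05 and for miR-130b-3p 0.09 (limma adjusted p = 0.976 and 0.964).

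Marker sums were compared with these levels. The endothelial list (miR-126 and miR-221/222 arms, 4 of 6 listed) summed to 21422 to 24402 RPM in HF+Ex. In the other groups it summed to 13971 to 21531 RPM, and LF replicate 1 reached into the HF+Ex range. Its lowest sum was in LF+CR, and miR-130a-3p was highest in LF+Ex. As a description, r of this sum with miR-130a-3p was -0.48 over 18 libraries and -0.04 as deviations from group means. With the sums of the other cell types, r of miR-130a-3p ran from -0.37 (neuronal) to 0.38 (erythroid) over 18 libraries. As deviations from group means these were -0.22 and 0.27. None of the listed endothelial markers was at 0. Entries resembling fragments of other RNAs summed to 414 RPM in HF+Ex replicate 1, against 22.1 and 30.8 RPM in the other HF+Ex libraries, and this was also the HF+Ex library with most miR-130a-3p and fewest reads. HF replicate 2 (127 RPM, against 33.9 and 43.9), LF+Ex replicate 1 (43.6, against 24.4 or less) and HF+CR replicate 1 (308, against 122 and 160) likewise had the highest sum and the most miR-130a-3p of their groups. In LF (21.4 to 28.7 RPM) and LF+CR (38.8 to 42.2) the 2 maxima fell in different libraries. As a description over 18 libraries, r of this sum with miR-130a-3p was 0.07, and 0.79 as deviations from group means, the highest of the 12 lists. All 5 entries were listed, and 2 of them, miR-2137 and miR-5099, were at 0 in some library. Most of the sum was 1 entry, miR-690, which reached 387 RPM in HF+Ex, 300 in HF+CR and 110 in HF. The r of this list is therefore largely that of 1 entry. The part of the endothelial or the fragment-like sum in the result was not tested. In whole liver, fewer cells of a type and less RNA per cell cannot be told apart.

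**Figure D3:**
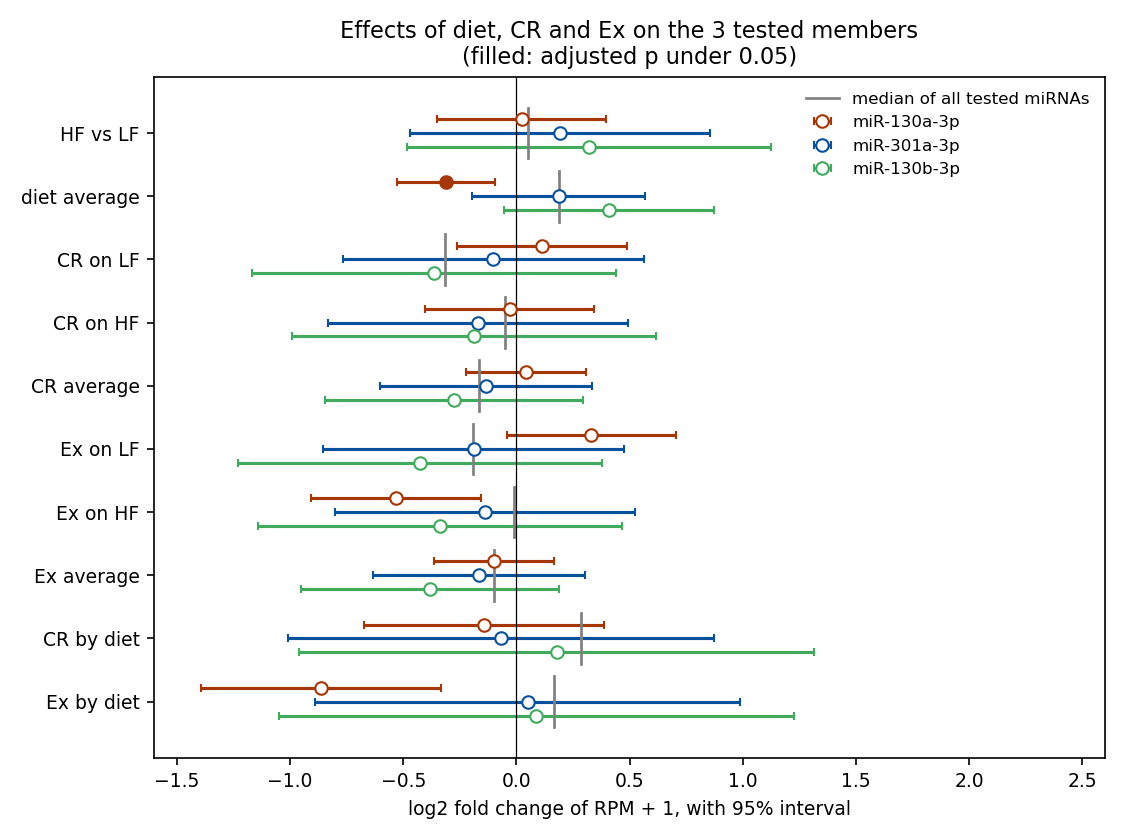
Log2 fold change of RPM + 1 for the 3 tested members in each of the 10 comparisons, with the 95% interval; the grey bar is the median of all tested miRNAs and a filled point passed the test. The diet average of miR-130a-3p, -0.31, is the only filled point.

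miR-301a-3p was called in 0 of its 10 comparisons and varied mostly within groups. Its libraries held 325, 139 and 182 RPM (LF), 223, 172 and 173 RPM (LF+CR), 186, 129 and 229 RPM (LF+Ex), 199, 283 and 218 RPM (HF), 178, 154 and 315 RPM (HF+CR) and 196, 221 and 212 RPM (HF+Ex). LF replicate 1 and HF+CR replicate 3 were the highest, and the ranges overlapped in all 7 pairs of groups compared. The averaged diet difference was 0.19 on the log2 scale (SE 0.18, limma adjusted p = 0.472), and the smallest adjusted p over its 10 comparisons was that one.

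miR-130b-3p, which has been linked to liver cancer, had higher means on the HF diet under each regimen and did not pass the test. Its libraries held 7.78, 2.22 and 5.13 RPM (LF), 4.03, 2.99 and 3.04 RPM (LF+CR), 2.99, 2.22 and 4.57 RPM (LF+Ex), 5.01, 6.66 and 6.32 RPM (HF), 3.36, 4.05 and 9.36 RPM (HF+CR) and 5.28, 4.68 and 3.68 RPM (HF+Ex). The HF and LF ranges overlapped under each regimen, and the averaged difference was 0.41 (SE 0.22, 95% interval -0.06 to 0.87, limma adjusted p = 0.171). miR-130b-3p reached 5 RPM in 7 libraries, namely LF replicates 1 and 3, all of HF, HF+CR replicate 3 and HF+Ex replicate 1. The LF diet alone would not have met the filter of 3 libraries. Its diet difference is therefore a description only.

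miR-301b-3p was below 5 RPM in all 18 libraries and was not tested. Its libraries held 4.67, 1.11 and 1.86 RPM (LF), 2.64, 1.89 and 1.90 RPM (LF+CR), 0.951, 0.648 and 1.20 RPM (LF+Ex), 2.13, 2.86 and 1.54 RPM (HF), 1.40, 0.529 and 2.01 RPM (HF+CR) and 1.63, 2.54 and 2.45 RPM (HF+Ex). HF+Ex was above LF+Ex in all libraries, at 2.36 times the mean, as were 32.5% of the miRNAs that were tested. This order is opposite to that of miR-130a-3p in the same libraries, and it rests on few reads.

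With CR, no tested member passed the test. On the LF diet the log2 differences were 0.11 for miR-130a-3p, -0.10 for miR-301a-3p and -0.37 for miR-130b-3p, where 6.27% of miRNAs were called and the median of all was -0.32. On the HF diet they were -0.03, -0.17 and -0.19, where 0% were called (53 at unadjusted p under 0.05, 0 with voom). Averaged over both diets they were 0.04, -0.13 and -0.28, where 6.55% were called, and the difference between diets was -0.14, -0.07 and 0.18, where 0.855% were called. Rescaling shifted the median of all by 0.33 for CR on the LF diet and 0.19 for the CR average, and the share of calls that were lower went from 90.9 to 50% and from 95.7 to 62.5%. For miR-130a-3p the rescaled differences were 0.45 on the LF diet (limma adjusted p = 0.181, unadjusted p = 0.0222), 0.24 averaged over both diets and -0.42 between diets (limma adjusted p = 0.247 and 0.521), each larger than in RPM and none past the threshold. The difference of miR-301a-3p on the LF diet changed sign to 0.23 with rescaling, and to 0.24 without LF replicate 1 and HF+CR replicate 3. No member's libraries were all above or all below in the comparisons of CR with the diet alone, where 3.99% of tested miRNAs were all higher and 24.8% all lower on the LF diet, and 5.13% and 9.4% on the HF diet. Nor were they between HF+CR and LF+CR, where the shares were 23.9% and 3.7%.

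Between HF and LF without intervention, no tested member passed the test. The log2 difference was 0.02 for miR-130a-3p (limma adjusted p = 0.983), 0.19 for miR-301a-3p (0.827) and 0.32 for miR-130b-3p (0.716), and 0.285% of all miRNAs were called. All 4 members overlapped between these groups, where 10.5% of tested miRNAs were all higher in HF and 8.55% all lower. Averaged over diets, Ex gave -0.10, -0.16 and -0.38, and limma called 0% of miRNAs (12 at unadjusted p under 0.05, 0 with voom). For miR-130a-3p that average joins differences of opposite sign on the 2 diets.

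miR-130b-3p and miR-301a-3p varied together from library to library, although their hairpins are on different chromosomes. Over the 18 libraries, Pearson's r of their log2 levels was 0.88 (permutation p = 2e-05, adjusted over 3 pairs 6e-05) and Spearman's rho 0.78 (permutation p = 0.00027, adjusted 0.00081). Without HF+CR replicate 3 and LF replicate 1, the libraries farthest from the median, r was 0.79. Within groups, as deviations from group means, r was 0.90 (permutation p = 1e-05, the smallest these permutations can give, adjusted 3e-05). That p does not allow for the group means taken out. After rescaling r of the pair was 0.69 over the 18 libraries (permutation p = 0.00167, adjusted 0.00501). It was 0.52 without LF replicate 2 and LF+Ex replicate 2, then the farthest from the median. Such closeness was not particular to this pair. Within groups, r of miR-301a-3p was 0.90 with let-7i-5p and 0.89 with miR-497-3p, against a median of 0.35 over 348 other miRNAs. After rescaling, its r with miR-497-3p was 0.78.

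No relation of miR-130a-3p with either passed the test. Its r was -0.12 with miR-130b-3p (permutation p = 0.646, adjusted 0.863; rho -0.24, permutation p = 0.331) and -0.04 with miR-301a-3p (permutation p = 0.863, adjusted 0.863; rho -0.03, permutation p = 0.916). Without HF+Ex replicates 2 and 3 these were -0.23 and 0.05. After rescaling, r with miR-130b-3p was -0.37 (permutation p = 0.126, adjusted 0.189), and -0.59 without the same 2 libraries; with miR-301a-3p it was -0.03. The ratio of miR-130a-3p to miR-301a-3p was 16.2 ± 5.42 in LF+Ex and 7.47 ± 1.81 in HF+Ex (SD, n = 3).

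**Figure D4:**
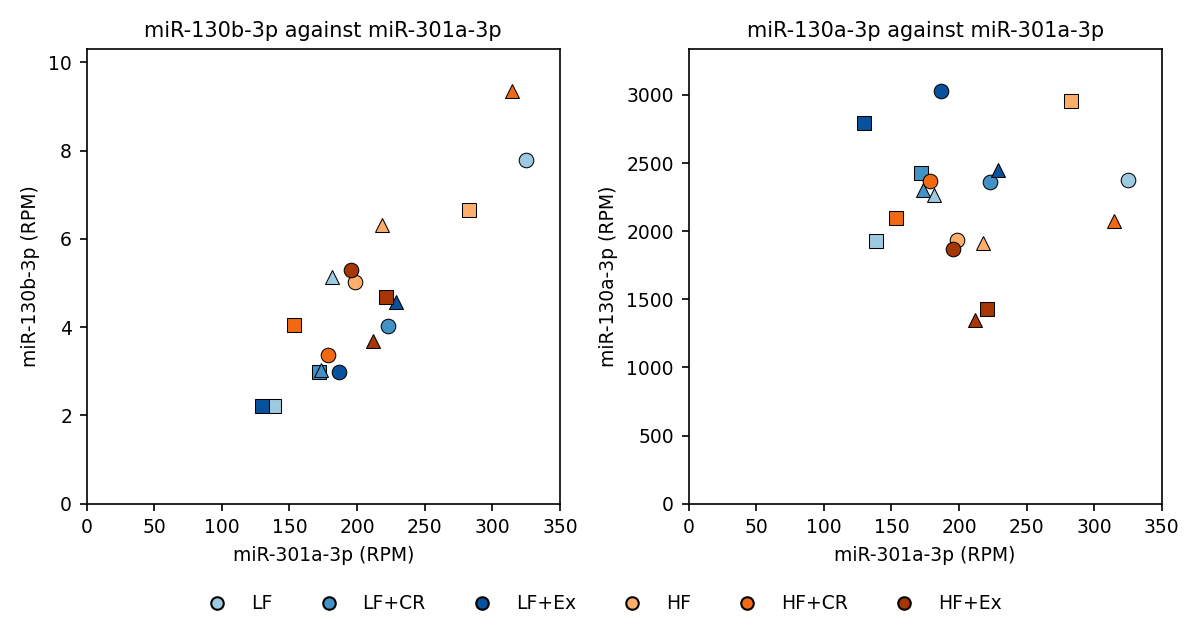
RPM of miR-130b-3p (left) and miR-130a-3p (right) against RPM of miR-301a-3p in the 18 libraries, on linear axes. On log2 values r is 0.88 for the left pair (0.69 after rescaling) and -0.04 for the right pair (-0.03 after rescaling).

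Markers of some other cell types moved with miR-301a-3p and miR-130b-3p, and those of others did so weakly or not at all. The 7 leukocyte and Kupffer miRNAs, all listed and none at 0, summed to 2383 to 8072 RPM in LF, 2192 to 2997 in LF+CR, 3036 to 4114 in LF+Ex, 5855 to 7523 in HF, 3519 to 9127 in HF+CR and 5142 to 7185 in HF+Ex. The r values are a description over 18 libraries, whose RPM values are all parts of 1 total per library. For miR-301a-3p and miR-130b-3p, r was 0.74 and 0.82 with the leukocyte sum, and -0.89 and -0.80 with the hepatocyte sum. It was 0.58 and 0.56 with the stellate and mural sum, and 0.63 and 0.58 with the epithelial and bile duct sum. With the endothelial sum it was 0.27 and 0.33, and with the erythroid sum 0.27 and 0.16. With the pancreatic sum it was -0.14 and -0.25, and with the neuronal sum -0.27 and -0.02. LF replicate 1 and HF+CR replicate 3 had the highest leukocyte and lowest hepatocyte sums. No r of these sums was computed without them or after rescaling. Of the leukocyte list 5 of 7 rose with the HF diet on average (median of the list 0.79, of all tested miRNAs 0.19), in a comparison where 18.5% of all tested miRNAs were called, 56 of them higher. The part of cell makeup in the levels of these members was not tested.

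**Figure D5:**
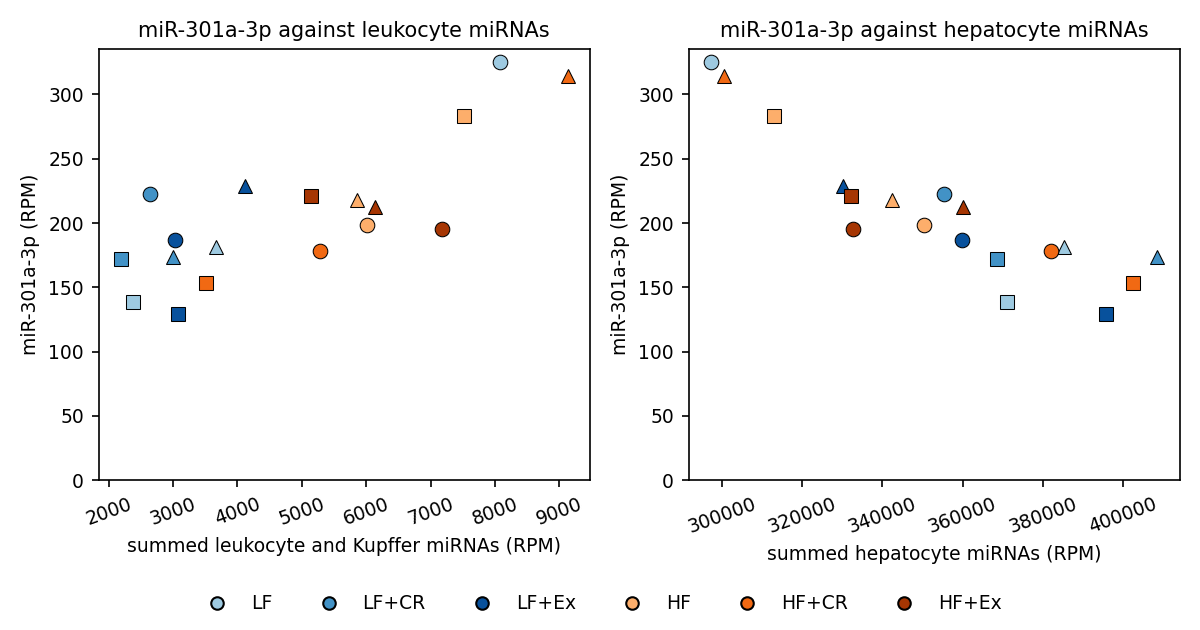
RPM of miR-301a-3p against the summed RPM of leukocyte and Kupffer miRNAs (left) and of hepatocyte miRNAs (right) in the 18 libraries. LF replicate 1 and HF+CR replicate 3 sit at the top of both panels, at 325 and 315 RPM.

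The miRNAs most like each member were ranked by Pearson's r over the 18 libraries, among 348 other miRNAs. For miR-130a-3p they were miR-345-5p (0.74), miR-17-5p (0.69), miR-106b-5p (0.65), miR-148a-3p (0.63) and miR-20a-5p (0.61), against a median of -0.07. In the same order, Spearman's rho was lower at 0.49, 0.45, 0.45, 0.56 and 0.50, against a median of -0.12. For miR-130b-3p they were led by miR-142-5p (0.85), a leukocyte miRNA, against a median of 0.37, and for miR-301a-3p by miR-497-3p (0.86), against a median of 0.30. Within groups, r of miR-148a-3p with miR-130a-3p was -0.04, so that likeness lay between groups.

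The 3 miRNAs that fell with Ex on the HF diet were all among the 5 most like miR-130a-3p. That ranking used the same libraries, with miR-130a-3p lowest in HF+Ex, so it favours miRNAs that fell there. The overlap is a description and no separate support. miR-17-5p went from 107 ± 9.01 to 57.7 ± 13.6 RPM (log2 difference -0.90, limma adjusted p = 0.0235) and miR-20a-5p from 1071 ± 139 to 599 ± 129 RPM (-0.85, limma adjusted p = 0.0483), both of the miR-17-92 cluster. miR-148a-3p, a hepatocyte miRNA, went from 24036 ± 3940 to 11829 ± 1590 RPM (-1.02, limma adjusted p = 0.0429). After rescaling miR-17-5p still passed, and miR-148a-3p (-1.01) and miR-20a-5p (-0.84) did not (limma adjusted p = 0.0940 and 0.111). miR-148a-3p carries the first 6 bases of the family's seed 1 base further along, at bases 3 to 8, in capitals here.
mmu-miR-148a-3p: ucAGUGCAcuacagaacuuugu
It is not a member, and miR-148b-3p, miR-152-3p and miR-350-5p carry the same 6 bases at the same place. A match of these letters is a description only.

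Among other miRNAs linked to Pparg or fat cells, all 7 were tested. In the diet average, where 18.5% of all tested miRNAs were called (56 higher and 9 lower), 3 rose and 0 fell, namely miR-27b-3p (0.32), miR-33-5p (0.56), a repressor of cholesterol export, and miR-34a-5p (0.91), a p53 target. After rescaling none of the 3 passed the test, with the same sign (0.12, 0.36 and 0.70). In the CR average, where 6.55% of all were called, 4 fell, miR-103-3p (-0.49), miR-107-3p (-0.60), miR-27b-3p (-0.40) and miR-34a-5p (-1.50), and 0 rose. After rescaling miR-34a-5p still passed (-1.31) and the other 3 did not (-0.29, -0.40 and -0.21). Between HF and LF without intervention miR-33-5p rose (1.58) and 0 fell, where 0.285% of all were called. With CR on the LF diet miR-33-5p rose (1.03), and miR-27b-3p (-0.64) and miR-34a-5p (-1.93) fell, where 6.27% of all were called. After rescaling miR-27b-3p no longer passed there (-0.31). With Ex, 0 of 7 passed the test on either diet, but the Ex effect on miR-33-5p differed between diets (-2.07, limma adjusted p = 0.00824; -2.22 and 0.00585 after rescaling), where 0.855% of all were called. miR-33-5p was at 5.69 ± 0.613 RPM in LF and 12.5 ± 0.607 in LF+Ex, and at 19.5 ± 5.67 RPM in HF and 8.83 ± 2.65 in HF+Ex (SD, n = 3).

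Set against the same 18.5%, of 5 tested miRNAs linked to angiogenesis, miR-126-3p rose in the diet average (0.36, limma adjusted p = 0.0170; 0.15 and 0.256 after rescaling) and 0 fell. Of 6 linked to TGF-beta and fibrosis, 2 were called: miR-214-3p rose (0.94) and miR-29c-3p, a repressor of collagens, fell (-0.26). Both kept their call after rescaling (0.76 and -0.47), and neither list had a member called with Ex on either diet.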

How the data were processed

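Per the file headers and the values, the authors deposited RPM (reads per 1000000) for each miRNA in 18 libraries, scaled to a total that includes reads outside the listed miRNAs. The submitters' processing notes name mm10; the aligner and counter were not given in the sources used here. RPM values in each library were whole multiples of 1 step (tolerance 0.001 reads), which gave the implied reads. Values were taken as log2(RPM + 1), the scale of all fold changes, which understates changes of scarce miRNAs. The 351 miRNAs with at least 5 RPM in at least 3 libraries were fitted with limma 3.58.1 (R 4.3.3), with 1 coefficient per group and an intensity trend, and 407 were not tested. Relations used 100000 two-sided random permutations of libraries (Python 3.11.15, with ranks from scipy 1.17.1). Intervals cover the spread between libraries. The fit was also run on simulated data with independent noise for each miRNA. These held no shift shared by a whole library, so that run cannot show how the fit handles one. Named miRNAs were the members, their other arms, the 5 most like each tested member, and fixed lists. Members and lists were chosen with earlier results of these data known. Alternatives changed the pseudocount, filter, scaling, trend, samples and replicate block.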

Additional observations from a re-analysis of the deposited data

How the results depend on the processing

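The lower level of miR-130a-3p on the HF diet on average kept its sign in all 29 alternatives and its call in 9. The difference was -0.31 with no filter (limma adjusted p = 0.0761), with the replicate block (0.0503) and with no intensity trend (0.0569), -0.28 without LF 1 and HF+CR 3 (0.0763), -0.38 without the 3 shallowest libraries (0.0746) and -0.048 without both exercise groups (0.851). Rescaling brought the Ex difference between diets of miR-130a-3p past the threshold (-1.03). Of 608 values of the 3 members under alternatives, 536 kept their sign and side of the threshold and 51 changed sign, none of these a called value.

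Signs turned under rescaling for miR-130a-3p in HF against LF (-0.033) and CR on HF (0.028), for miR-130b-3p in the CR (-0.056) and Ex (-0.050) differences between diets, and for miR-301a-3p in the diet average (-0.018), CR on LF (0.23), the CR average (0.060) and the Ex difference between diets (-0.12). Without LF 1 and HF+CR 3 they turned for miR-130a-3p in CR on HF (0.0043), for miR-130b-3p in the CR (-0.53) and Ex (-0.24) differences, and for miR-301a-3p in CR on LF (0.24), Ex on LF (0.15), the Ex average (0.0077) and the Ex difference (-0.29). Without the 3 shallowest libraries, the CR and Ex differences between diets of miR-130b-3p were -0.10 and -0.0079. As deviations from group means, r of miR-130a-3p was 0.20 with miR-130b-3p and 0.21 with miR-301a-3p. The cause of these changes was not tested.

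Leaving out 1 library at a time gave, for miR-130a-3p, -0.38 to -0.28 in the diet average, -0.18 to 0.13 in HF against LF, -0.14 to 0.18 in CR on HF, -0.012 to 0.15 in the CR average, -0.17 to 0.0030 in the Ex average and -0.25 to 0.063 in the CR difference between diets. For miR-130b-3p it gave -0.075 to 0.65 in HF against LF, -0.57 to 0.056 in CR on HF, and -0.20 to 0.57 and -0.24 to 0.48 in the CR and Ex differences. For miR-301a-3p it gave -0.076 to 0.54 in HF against LF, -0.37 to 0.24 in CR on LF, -0.48 to 0.039 in CR on HF, -0.29 to 0.037 in the CR average, -0.46 to 0.15 in Ex on LF, -0.25 to 0.0078 in Ex on HF, -0.30 to 0.0077 in the Ex average, and -0.41 to 0.20 and -0.29 to 0.32 in the CR and Ex differences.

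Over the alternatives, the number of all miRNAs called ranged from 6 to 91 in the diet average (65 in the report), 0 to 40 in CR on LF (22), 0 to 25 in CR on HF (0), 0 to 78 in the CR average (23), 0 to 7 in HF against LF (1), 0 to 2 in Ex on LF (0), 0 to 5 in Ex on HF (3), and 1 to 9 and 2 to 12 in the CR and Ex differences between diets (3 each). Replicate numbers showed no clear pairing. For 7 of 18 libraries, the mean correlation of deviations with libraries of other groups was highest for their own number. The median r was 0.019 for pairs of the same number and 0.0065 for other pairs. The replicate block (-0.31 for miR-130a-3p, as above) changed no other call of a member. The planned edgeR fit was not run, and voom weights and the omission of the exercise groups were added after seeing the data. miR-130b-3p has no value under the filter of 50 RPM. The fewest reads stand behind miR-130b-3p (12 to 60) and miR-301b-3p (3 to 36).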
